A study of Caenorhabditis elegans with 4 samples.

Results

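The genes described here are 10 components of G protein signalling around egl-30, out of 20389 genes in the deposited tables. They are the Gq alpha subunit gene egl-30, the Go alpha subunit gene goa-1, the Gs alpha subunit gene gsa-1, the G beta genes gpb-1 and gpb-2, the G gamma gene gpc-2, the phospholipase C beta gene egl-8, the adenylyl cyclase gene acy-4, and the protein kinase A subunit genes kin-1 and kin-2. The set was selected on the lower level of egl-30 in met-2;him-8 in these libraries, and the other 9 genes were then listed by their known roles to ask whether that difference was shared. The fold change of egl-30 is therefore a description and carries no test. All 10 genes were found by symbol in the authors' comparison table, and all 10 passed the filter on low counts.

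The study sequenced polyadenylated RNA from dissected adult hermaphrodite gonads of Caenorhabditis elegans to ask what loss of H3K9me2 does to the germline transcriptome. Gonads of met-2(n4256);him-8(tm611) animals, which lack the H3K9 methyltransferase MET-2, were compared with gonads of him-8(tm611) animals, with 2 libraries per genotype from separate sets of dissected gonads. Both genotypes carry the him-8 deletion, so that X chromosome pairing and synapsis are lost in the controls as well. The met-2 mutants had been recently derived from a balanced strain and were fertile, and gonads were cut at the spermatheca, so that each sample held germ cells together with somatic sheath and some spermathecal cells. A lower read count in such tissue can come from fewer cells of a type or from less RNA per cell, and these cannot be told apart.

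Heterotrimeric G proteins relay signals from receptors at the cell surface. Gq activates phospholipase C beta, Go opposes Gq in the neurons of the worm, and Gs activates adenylyl cyclase, whose product cyclic AMP releases the catalytic subunit of protein kinase A from its regulatory subunit. In the worm gonad, Gs and adenylyl cyclase act in the sheath cells to let oocytes resume meiosis in response to the sperm signal, and Go acts against maturation when sperm are absent.

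The counts summed to between 14255714 and 49848077 reads per library, and the shallowest library was him-8 replicate 2. Levels are given as CPM, which are reads scaled to library size, after TMM normalization, and the detection limit was set at 3 reads, which is 0.0602 to 0.210 CPM before that normalization. Every one of the 10 genes had more reads than that in every library. The smallest count was that of gsa-1 in him-8 replicate 2, with 13 reads (95% exact Poisson interval 6.92 to 22.2, counting error only). The labels were checked on met-2, which was at 25.8 and 52.8 CPM in met-2;him-8, against 127 and 212 CPM in him-8, so that both mutant libraries were lower than both controls (log2 fold change -2.11, edgeR adjusted p = 0.886). The adjusted p of met-2 was 0.0269 with DESeq2 and 5.16e-07 with edgeR when no filter on low counts was used, and ran from 0.272 to 1 with each library left out. The gonad was checked on 11 genes of germ cells and oocytes, which together took 13000 and 21800 CPM in met-2;him-8 and 12800 and 14300 CPM in him-8.

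The Gq alpha subunit gene egl-30 (M01D7.7, plus strand of chromosome I, 1835938 to 1840890 in the authors' coordinates) reached 17.4 and 16.1 CPM in met-2;him-8, against 41.0 and 38.5 CPM in him-8. These values stand for 335 and 535 reads in met-2;him-8 and 2125 and 527 reads in him-8. The libraries of each genotype lay close together and the genotypes did not overlap. The mean level was 16.7 ± 0.924 CPM in met-2;him-8 and 39.8 ± 1.74 CPM in him-8 (SD, n = 2 each), which is 0.420 of the him-8 level, and the log2 fold change was -1.25 (SE 0.270). When single libraries were set against each other, the log2 difference lay between -1.35 and -1.15 in all 4 comparisons of a met-2;him-8 with a him-8 library. Of all 10875 genes tested, 5.51% had a log2 fold change at or below that of egl-30.

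**Figure D1:**
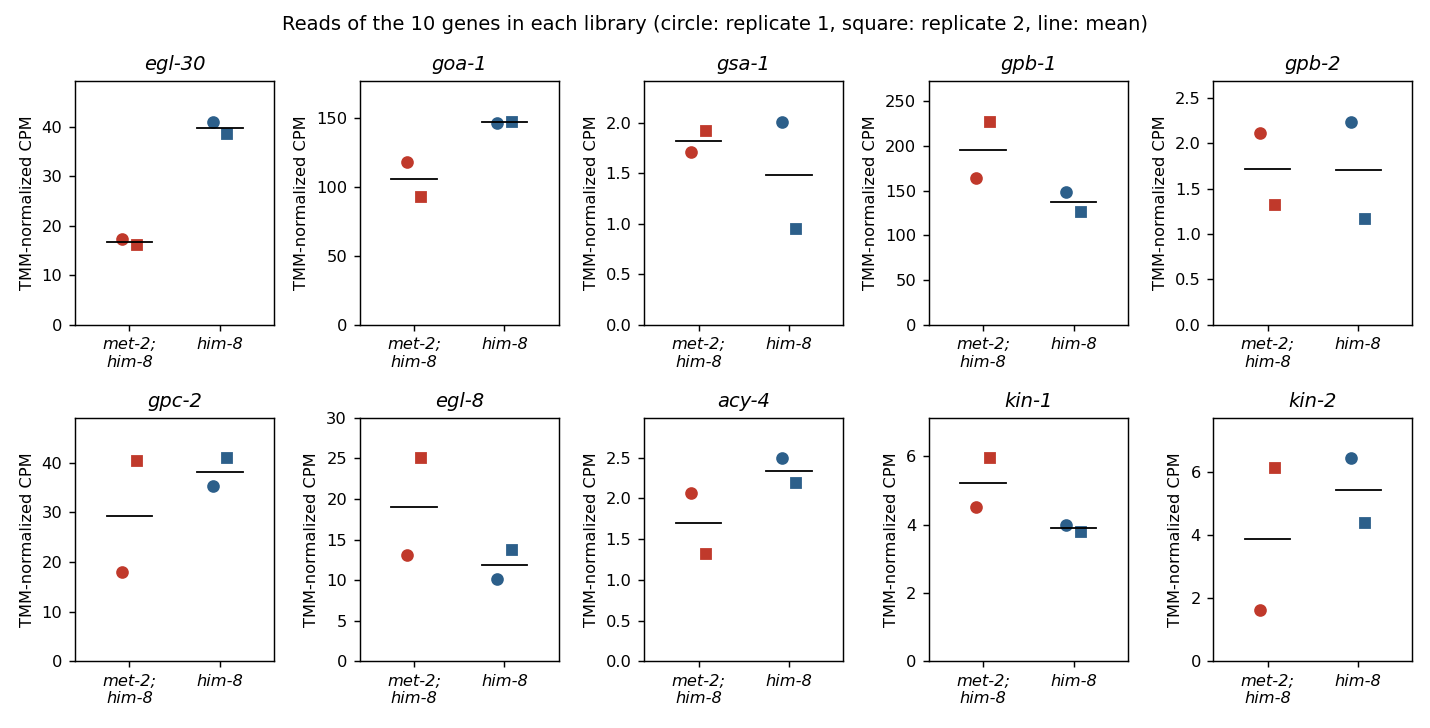
TMM-normalized CPM of the 10 genes in each library, by genotype, on linear axes that start at 0. Circles are replicate 1, squares are replicate 2 and lines are the means. For egl-30 both met-2;him-8 libraries (17.4 and 16.1 CPM) lie far below both him-8 libraries (41.0 and 38.5 CPM), whereas for 5 of the genes the libraries of the genotypes overlap.

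The comparison between genotypes was made with edgeR's quasi-likelihood test over all 10875 genes that passed the filter, with Benjamini-Hochberg adjustment. None of the 10 genes had an adjusted p below 0.05 (0 genes, against a background of 0% of all genes tested), and DESeq2 also called 0 of the 10, with 26 calls over all genes. At an unadjusted p below 0.05 there was 1 gene of the 10, egl-30, which was chosen on this same contrast, where 4.84% of all genes tested had such a value. In 3 of the 10 genes (egl-30, goa-1 and acy-4) met-2;him-8 was wholly lower, that is, each of its libraries was under each him-8 library, and in 2 (gpb-1 and kin-1) it was wholly higher. Over all genes tested the same 2 patterns were seen in 19.8% and 16.9% of the genes. The 10 genes had a median log2 fold change of -0.19, set against -0.01 for the 9 genes other than egl-30, and 0.02 for all genes tested. The paper's own comparison of these genotypes, made with Cuffdiff at a q-value below 0.05, did call a set of transcripts different. It shows egl-30 as an example of a transcript reduced in met-2;him-8. That comparison was not repeated here.

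The alpha subunit of Go differed in the same direction as egl-30, by a smaller amount. Transcripts of goa-1 (C26C6.2, chromosome I, 7522206 to 7525851, plus strand), which also helps to position the mitotic spindle in the embryo, reached 118 and 92.7 CPM in met-2;him-8, against 146 and 147 CPM in him-8. Both mutant values were under both controls, while the mutant libraries also stood further apart from each other than the controls did. The means were 105 ± 17.7 CPM in met-2;him-8 and 146 ± 1.24 CPM in him-8 (SD, n = 2 each), and the log2 fold change was -0.48 (95% interval -1.06 to 0.11, edgeR adjusted p = 0.886). The interval of goa-1 includes 0 and does not reach the estimate for egl-30, which has an error of its own.

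The alpha subunit of Gs was near the limit of what these libraries could resolve. Transcripts of gsa-1 (R06A10.2, chromosome I, 1068999 to 1074346, plus strand) were at 1.71 and 1.92 CPM in met-2;him-8 and at 2.01 and 0.950 CPM in him-8. Both mutant values fell between the 2 control values. Its log2 fold change was 0.28 (standard error 0.67, edgeR adjusted p = 0.979), and the 95% interval of -1.45 to 2.0 includes both 0 and the estimate for egl-30. The log2 value was -0.14 without him-8 replicate 2 and 0.92 without him-8 replicate 1.

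The G beta subunit genes differed from each other in level and in pattern. Transcripts of gpb-1 (F13D12.7, chromosome II, 11743916 to 11747584, minus strand), the G beta that partners the alpha subunits throughout the animal, were at 164 and 227 CPM in met-2;him-8 and at 148 and 126 CPM in him-8. Both mutant libraries lay above both controls, which is the opposite of egl-30. The means were 196 ± 44.8 CPM in met-2;him-8 and 137 ± 15.8 CPM in him-8 (SD, n = 2 each), and the log2 fold change was 0.52 (95% interval -0.13 to 1.16, edgeR adjusted p = 0.886). The interval includes 0 and excludes the estimate for egl-30, on which the set was chosen and which has an error of its own. The log2 value was 0.25 without met-2;him-8 replicate 2 and 0.74 without met-2;him-8 replicate 1.

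Transcripts of gpb-2 (F52A8.2, chromosome I, 7318478 to 7320907, minus strand), whose product associates with the RGS proteins EAT-16 and EGL-10, were at 2.12 and 1.32 CPM in met-2;him-8 and at 2.24 and 1.17 CPM in him-8. In each genotype replicate 1 was the higher library, and the genotypes overlapped almost fully, with means of 1.72 ± 0.569 CPM in met-2;him-8 and 1.70 ± 0.755 CPM in him-8 (SD, n = 2 each). With 41 and 44 reads in met-2;him-8 and 116 and 16 reads in him-8, a difference as large as that of egl-30 was not detectable at this depth and spread (95% interval of the log2 fold change -1.74 to 1.72).

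Transcripts of the G gamma gene gpc-2 (F08B6.2, chromosome I, 6757769 to 6758008, plus strand) were at 18.1 and 40.3 CPM in met-2;him-8 and at 35.3 and 40.9 CPM in him-8. Only replicate 1 of met-2;him-8 was low, and the other mutant library lay between the controls. The log2 value came to -0.38 (standard error 0.44, edgeR adjusted p = 0.960), with -1.09 without met-2;him-8 replicate 2 and 0.09 without met-2;him-8 replicate 1.

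Among the effectors, egl-8 (B0348.4, chromosome V, 21007 to 43170, plus strand), which encodes the phospholipase C beta that acts downstream of EGL-30, did not share the lower level. It was at 13.1 and 25 CPM in met-2;him-8 and at 10.1 and 13.7 CPM in him-8. The genotypes overlapped, since him-8 replicate 2 lay just above met-2;him-8 replicate 1. The log2 fold change was 0.68 (standard error 0.45, 95% interval -0.46 to 1.82, edgeR adjusted p = 0.891). The interval excludes the estimate for egl-30, on which the set was chosen and which has an error of its own. The log2 value was 0.13 without met-2;him-8 replicate 2 and 1.08 without met-2;him-8 replicate 1.

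Transcripts of acy-4 (T01C2.1, chromosome V, 5624920 to 5630862, minus strand), the adenylyl cyclase that acts in sheath cells, were at 2.07 and 1.32 CPM in met-2;him-8 and at 2.49 and 2.19 CPM in him-8. The mutant libraries were wholly lower, but by little, since replicate 1 of the mutant, with 40 reads, was nearly level with replicate 2 of the control, with 30 reads. Its log2 fold change was -0.47 (standard error 0.59, 95% interval -1.98 to 1.03, edgeR adjusted p = 0.963), with -0.19 without met-2;him-8 replicate 2 and -0.82 without met-2;him-8 replicate 1.

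The protein kinase A subunits went in opposite directions, and neither was called. Transcripts of kin-1 (ZK909.2, chromosome I, 14919524 to 14951556, plus strand), the catalytic subunit, were at 4.51 and 5.94 CPM in met-2;him-8 and at 3.99 and 3.80 CPM in him-8, with both mutant libraries above both controls. Its log2 fold change was 0.42 (standard error 0.44, 95% interval -0.71 to 1.56, edgeR adjusted p = 0.944), with 0.20 without met-2;him-8 replicate 2. Transcripts of kin-2 (R07E4.6, chromosome X, 5971660 to 5977819, minus strand), the regulatory subunit that holds the catalytic subunit inactive, were at 1.61 and 6.12 CPM in met-2;him-8 and at 6.42 and 4.39 CPM in him-8.

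The low value of kin-2 came from met-2;him-8 replicate 1 alone, which had 31 reads (95% exact Poisson interval 21.1 to 44.0), while replicate 2 had 204 reads and lay between the controls. For kin-2 the log2 fold change was -0.48 (standard error 0.74, edgeR adjusted p = 0.975), with -1.77 without met-2;him-8 replicate 2 and 0.18 without met-2;him-8 replicate 1. It was the only one of the 10 genes on the X chromosome, and 6 of the 10 lie on chromosome I.

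**Figure D2:**
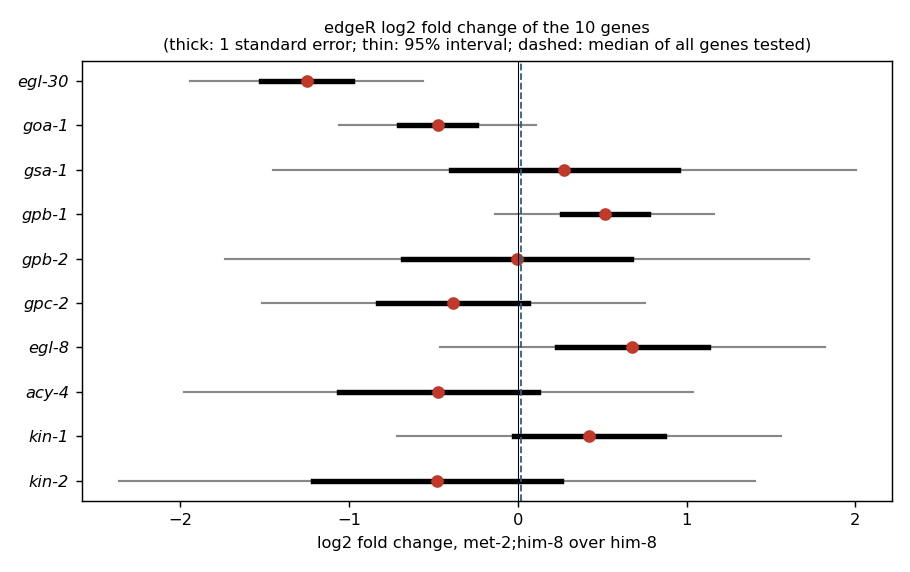
Log2 fold change (met-2;him-8 over him-8) of the 10 genes from edgeR, with 1 standard error as thick lines and the 95% interval as thin lines. The dashed line is the median of all genes tested, 0.02. The interval of egl-30 (-1.94 to -0.56, shown without a test because the gene was chosen for this difference) lies below 0, and those of the other 9 genes include 0.

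Whether the difference of egl-30 was shared was also read within each library, as reads of a gene per read of egl-30, a ratio that does not depend on how libraries are scaled to each other. In 7 of the other 9 genes this ratio was higher in both met-2;him-8 libraries than in both him-8 libraries, in 2 genes the genotypes overlapped (gpc-2 and kin-2), and in 0 genes it was lower. Over all other genes tested, 73.7% had a ratio to egl-30 that was wholly higher in met-2;him-8 and 2% one that was wholly lower, so the share among the 9 genes was near that of genes in general. For gpb-1 there were 9.45 and 14.2 reads per egl-30 read in met-2;him-8 and 3.62 and 3.27 in him-8. For goa-1 there were 6.79 and 5.78 reads per egl-30 read in met-2;him-8 and 3.55 and 3.82 in him-8. For egl-8 the values were 0.755 and 1.56 in met-2;him-8 and 0.248 and 0.357 in him-8. All these ratios have egl-30 as the divisor, which was chosen because it was low in met-2;him-8, so they are descriptions and are not independent of each other.

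**Figure D3:**
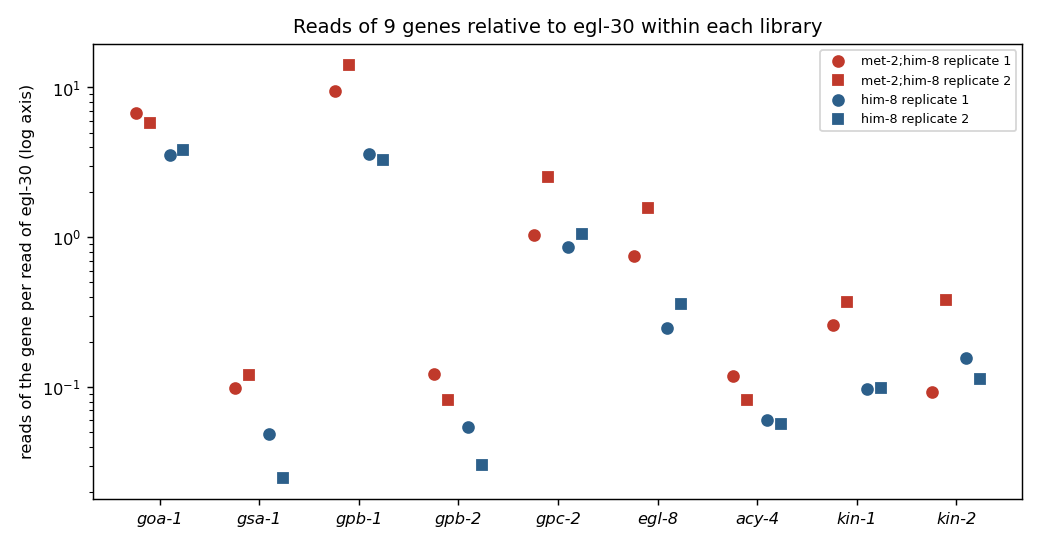
Reads of each of the other 9 genes per read of egl-30 within the same library, on a log axis, with the met-2;him-8 libraries to the left of the him-8 libraries for each gene. The met-2;him-8 values lie above the him-8 values for 7 of the 9 genes and overlap with them for gpc-2 and kin-2.

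The 95% interval of the log2 fold change included the estimate for egl-30 in 5 of the 9 genes (gsa-1, acy-4, gpb-2, gpc-2 and kin-2). Apart from gpc-2, these were genes at under 7 CPM in every library, and their intervals also included 0. It did not include that estimate in goa-1, gpb-1, egl-8 and kin-1. The set was chosen on the estimate for egl-30, whose own 95% interval was -1.94 to -0.56. That interval overlapped those of goa-1 and kin-1, and not those of gpb-1 and egl-8. With 2 libraries in each genotype, the smallest p that a two-sided exact permutation test allows for 1 gene is 0.333.

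Levels were compared between genes only per kilobase of exon, as TMM-normalized CPM per kilobase. In the him-8 gonads the order was gpc-2 (104 ± 10.9), goa-1 (72.5 ± 0.615), gpb-1 (55.7 ± 6.42), egl-30 (10.1 ± 0.442), kin-2 (2.37 ± 0.632), egl-8 (2.12 ± 0.452), gpb-2 (1.19 ± 0.525), gsa-1 (0.901 ± 0.455), kin-1 (0.730 ± 0.0253) and acy-4 (0.717 ± 0.0638; SD, n = 2 each). The first 4 genes were separate from their neighbours in that order, whereas kin-2 and egl-8 overlapped and so did the neighbours from gpb-2 down to acy-4. In the met-2;him-8 gonads gpc-2 (79.9 ± 43) and gpb-1 (79.6 ± 18.2) were level, goa-1 followed at 52.1 ± 8.77, and egl-30 at 4.25 ± 0.235 overlapped with egl-8 at 3.39 ± 1.5 (SD, n = 2 each). The Go alpha subunit thus had more reads per kilobase than the Gq alpha subunit in both genotypes, and the Gs alpha subunit had fewer than either.

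The authors' own RPKM, 1 value per genotype from both replicates, gave the same first 4 genes in both genotypes, though in another order in him-8, where gpb-1 (232 RPKM) lay above goa-1 (194 RPKM). For egl-30 the deposited value was 17.2 RPKM in met-2;him-8 and 50.1 RPKM in him-8. For gpc-2 it was 1058 RPKM in met-2;him-8 and 1596 RPKM in him-8, far above the value per kilobase from the counts, and gpc-2 has the shortest exons of the set with 365 bases. For kin-1 it was 5.82 RPKM in met-2;him-8 and 4.98 RPKM in him-8, which places kin-1 above kin-2 in met-2;him-8 and below it in him-8, while the counts per kilobase place it below in both. The RPKM also place kin-1 above egl-8 (4.28 RPKM in met-2;him-8 and 2.85 RPKM in him-8), and the counts per kilobase place it below. The exon lengths used for the counts came from another annotation than that of the authors, so the levels per kilobase carry that uncertainty. For gpc-2 the length used is longer than the whole span of the gene in the authors' coordinates, 6757769 to 6758008.

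Genes that act with these 10 were examined as 5 lists. They share genes with the set of 10 (2 in the Gq list, 1 in the Go list, 3 among the other subunits, 4 in the Gs list and 0 in the oocyte list). No gene of any list had an adjusted p below 0.05 in edgeR's test or in DESeq2's (0 genes). At an unadjusted p below 0.05 in edgeR's test there was 1 gene in each list except that of Go, which had 0. Among all genes tested 4.84% had such a value, and the 1 gene of the Gq list was egl-30, chosen on this contrast. Gq and its effectors had 16 tested genes of 17, 8 with a log2 fold change above 0 and 8 below, and a median of 0.02, the same as for all genes tested. In 4 of the 16, egl-30, itr-1, plc-4 and tpa-1, met-2;him-8 was wholly lower, and in 1 it was wholly higher. Among all genes tested these shares were 19.8% and 16.9%, and egl-30, chosen on this contrast, is among the 4. The 1 wholly higher gene was the RGS gene eat-16, at 2.69 and 3.09 CPM in met-2;him-8 and at 2.26 and 2.34 CPM in him-8 (log2 fold change 0.33, edgeR adjusted p = 0.975). The inositol trisphosphate receptor gene itr-1, which releases calcium in the sheath and spermatheca, was at 5.23 and 10.2 CPM in met-2;him-8 and at 12.1 and 13.6 CPM in him-8. The phospholipase C delta gene plc-4 was at 53.9 and 52.7 CPM in met-2;him-8 and at 68.1 and 104 CPM in him-8. The protein kinase C gene tpa-1 was at 2.54 and 4.32 CPM in met-2;him-8 and at 5.80 and 4.46 CPM in him-8.

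The genotypes did not overlap for these 3 genes either, with tpa-1 the narrowest, and their log2 fold changes were -0.74 for itr-1, -0.69 for plc-4 and -0.58 for tpa-1 (edgeR adjusted p between 0.886 and 0.927). With each library left out they ran from -1.31 to -0.33 for itr-1, from -0.98 to -0.35 for plc-4 and from -1.03 to -0.24 for tpa-1. The phospholipase C epsilon gene plc-1, which works in the spermatheca, had after egl-30 the largest fold change of the list among genes with at least 10 reads in every library. It was at 1.87 and 3.60 CPM in met-2;him-8 and at 0.791 and 1.90 CPM in him-8 and overlapped (log2 fold change 1.06, edgeR adjusted p = 0.897). The value was 0.52 without met-2;him-8 replicate 2, 0.51 without him-8 replicate 1 and 1.79 without him-8 replicate 2.

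Go, its regulators and its spindle partners had 14 tested genes of 15, with 8 log2 fold changes above 0, 6 below and a median of 0.07. In 3 of the 14 met-2;him-8 was wholly lower and in 2 wholly higher, beside 19.8% and 16.9% of all genes tested. The RGS genes egl-10 and rgs-7, which encode proteins that shorten the active state of G alpha subunits, lay higher in both met-2;him-8 libraries. The other RGS genes tested in this list did not. For rgs-2, which had few reads, both met-2;him-8 libraries were lower. It was at 0 and 0.450 CPM in met-2;him-8 and at 0.926 and 0.877 CPM in him-8 (log2 fold change -1.90, edgeR adjusted p = 0.916). For rgs-1 and rgs-3 the genotypes overlapped. EGL-10 acts on GOA-1, and egl-10 was at 4.35 and 4.86 CPM in met-2;him-8 and at 3.30 and 1.32 CPM in him-8 (log2 fold change 0.97, edgeR adjusted p = 0.891, with 0.49 without him-8 replicate 2 and 1.79 without him-8 replicate 1). For rgs-7 the values were 21.6 and 20.5 CPM in met-2;him-8 and 14.8 and 14.5 CPM in him-8 (log2 fold change 0.52, edgeR adjusted p = 0.891). The exchange factor gene ric-8, which both Gq and Go need, was at 69.8 and 57.0 CPM in met-2;him-8 and at 58.4 and 58.7 CPM in him-8, and gpa-16, a further alpha subunit in spindle positioning, was at 67.6 and 62.3 CPM in met-2;him-8 and at 64.9 and 63.4 CPM in him-8. Both of these overlapped between the genotypes.

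The other G protein subunits had only 9 tested genes of 21, since most of the remaining alpha subunits, which are known mainly from sensory neurons, had few or no reads. Of the 9, 7 had a log2 fold change below 0 and the median was -0.38. In 2 of the 9 met-2;him-8 was wholly lower and in 1 wholly higher, beside 19.8% and 16.9% of all genes tested. The alpha subunit gene gpa-1 (T19C4.6, chromosome V, 11174549 to 11177541), which encodes a nematode-specific G alpha, had the largest fold change of this list among genes with at least 10 reads in every library. It was at 4.04 and 2.13 CPM in met-2;him-8 and at 10.2 and 12.1 CPM in him-8, which is 78 and 71 reads in met-2;him-8 and 530 and 165 reads in him-8. The genotypes did not overlap, and the log2 fold change was -1.86 (standard error 0.50, edgeR adjusted p = 0.886).

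Gs, cyclic AMP and protein kinase A had 13 tested genes of 15, with 6 log2 fold changes above 0, 7 below and a median of -0.07. In 2 of the 13 met-2;him-8 was wholly lower and in 2 wholly higher, beside 19.8% and 16.9% of all genes tested. The phosphodiesterase gene pde-4, which encodes an enzyme that breaks down cyclic AMP, had the largest fold change in this list among genes with at least 10 reads in every library. It was at 2.38 and 3.66 CPM in met-2;him-8 and at 5.01 and 4.90 CPM in him-8 (log2 fold change -0.71, edgeR adjusted p = 0.893, with -0.43 without met-2;him-8 replicate 1 and -1.07 without met-2;him-8 replicate 2). A further phosphodiesterase gene, pde-1, named after its values were seen, had 23 and 100 reads in met-2;him-8 and 14 and 4 reads in him-8, and its log2 fold change was 2.90 (standard error 0.86, edgeR adjusted p = 0.886).

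The list of oocyte and sheath signalling had 18 tested genes of 19, with 8 log2 fold changes above 0, 10 below and a median of -0.08. The nonmuscle myosin gene nmy-1 was at 14.2 and 51.4 CPM in met-2;him-8 and at 8.87 and 21.5 CPM in him-8, and overlapped between the genotypes (log2 fold change 1.12, edgeR adjusted p = 0.893, and -0.10 without met-2;him-8 replicate 2). In 5 of the 18 met-2;him-8 was wholly lower, and these were the innexin genes inx-8, inx-9 and inx-14, the MAP kinase gene mpk-1 and the EGF gene lin-3. In 2, vab-1 and ceh-18, it was wholly higher, and among all genes tested these shares were 19.8% and 16.9%. The Eph receptor gene vab-1, whose product senses the sperm signal in oocytes, was at 250 and 329 CPM in met-2;him-8 and at 216 and 194 CPM in him-8, above in both mutant libraries (log2 fold change 0.50, edgeR adjusted p = 0.886, and 0.27 to 0.69 with each library left out).

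**Figure D4:**
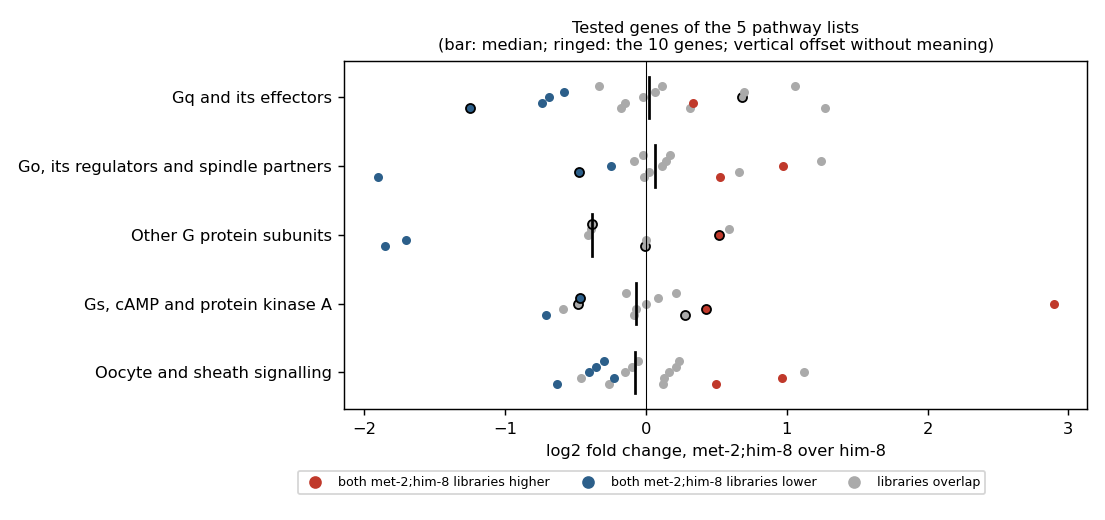
Log2 fold change (met-2;him-8 over him-8) of each tested gene in the 5 lists, with the median as a bar and the 10 genes ringed. Red points are genes with met-2;him-8 wholly higher, blue points those with it wholly lower, and grey points overlapped. The medians lie between -0.38 and 0.07.

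Markers of the cell types of a dissected gonad, and of neurons, body wall muscle, intestine and hypodermis, were read beside these values. The latter are not among the cell types that the paper counts in a gonad arm, and where their reads came from was not tested. The 6 sheath genes found in the files (lim-7, ceh-18, fkh-6, mup-2, inx-8 and inx-9, all of them tested) summed to 201 and 172 CPM in met-2;him-8 and to 243 and 251 CPM in him-8, none was at 0 reads, and 3 had a log2 fold change above 0 and 3 below. The sum was thus lower in both mutant libraries, as egl-30 was, and it was carried by the gap junction genes inx-8 (111 and 101 CPM in met-2;him-8, 158 and 171 CPM in him-8) and inx-9 (41.3 and 31.2 CPM in met-2;him-8, 46.8 and 46.1 CPM in him-8). The troponin T gene mup-2 went the other way, at 39.1 and 33.8 CPM in met-2;him-8 and at 31.7 and 25.4 CPM in him-8. The transcription factor genes that mark sheath identity did not go one way, since lim-7 was at 5.13 and 2.91 CPM in met-2;him-8 and at 4.32 and 6.51 CPM in him-8, and ceh-18 was at 2.75 and 1.77 CPM in met-2;him-8 and at 1.47 and 0.804 CPM in him-8. The part of sheath content in the lower egl-30 level was not tested.

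In the worm egl-30 also acts in neurons and muscle. The 9 neuronal markers summed to 115 and 161 CPM in met-2;him-8, and both him-8 sums lay between these values, the lower at 139 CPM. Most of each sum came from snb-1, which was at 102 and 143 CPM in met-2;him-8 and at 127 and 129 CPM in him-8. The 6 body wall muscle markers summed to 92.1 and 214 CPM in met-2;him-8 and to 83.5 and 61.9 CPM in him-8, which is higher in the mutant and opposite to egl-30. The largest part in met-2;him-8 was unc-54, at 39.6 and 123 CPM, against 32.7 and 24.8 CPM in him-8. Of the others, myo-3 and unc-15 were also wholly higher, whereas unc-89, hlh-1 and mlc-3 overlapped. The 8 intestinal markers also summed higher in the mutant, to 1880 and 1060 CPM in met-2;him-8 and 794 and 498 CPM in him-8. The largest part in met-2;him-8 was asp-1, at 1113 and 426 CPM, against 291 and 51.1 CPM in him-8. Of the others, vit-2 and vit-6 were also wholly higher, whereas elt-2, ges-1, vit-5, act-5 and ifb-2 overlapped. The 5 spermathecal markers summed to 411 and 1580 CPM in met-2;him-8 and to 582 and 809 CPM in him-8, and overlapped. Most of these sums was fln-1, at 345 and 1502 CPM in met-2;him-8 and at 523 and 759 CPM in him-8. All 5 had a log2 fold change above 0, and of the others inx-12 and inx-13 were wholly higher in met-2;him-8. The 6 hypodermal markers summed to 732 and 891 CPM in met-2;him-8 and to 842 and 238 CPM in him-8, and the 9 sperm markers to 43.1 and 24.2 CPM in met-2;him-8 and to 36.1 and 18.9 CPM in him-8, with ssp-9 at 0 reads in every library. The part of these cell types in the values of the 10 genes was not tested.

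The genes whose profile over the 4 libraries was most like that of egl-30 were EEED8.2, D2013.3, Y43F8C.9, C50D2.10 and nac-3, by Euclidean distance between log2 CPM profiles centred on their means, among the 8497 other genes with at least 10 reads in every library. The distances ran from 0.150 for EEED8.2 to 0.216 for nac-3. Some of these genes had few reads, such as EEED8.2, with 11 and 18 reads in met-2;him-8 and 80 and 18 reads in him-8. The counting error in the distances was not estimated. The profile of egl-30 was itself chosen for its difference, so the order is a description. The sodium-coupled transporter gene nac-3, for example, was at 7.25 and 6.12 CPM in met-2;him-8 and at 14.5 and 13.3 CPM in him-8. Of the other 9 components, goa-1 was the nearest to egl-30 with a distance of 0.786, at rank 541, followed by acy-4 at rank 694 and gpc-2 at rank 2512. The farthest was egl-8 with a distance of 2.04, at rank 7226.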

How the data were processed

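The data were 4 gonad mRNA libraries, 2 per genotype. Alignment by the authors used STAR, and differential expression used Cuffdiff 2.2.1. The deposited data are estimated counts for every gene in each library, not scaled to depth, and a Cuffdiff table in which the authors give 1 RPKM value per genotype. The tool behind the counts and the build of these tables are not given in the sources used here, and the WormBase release that the study names is for its repeat and promoter annotation. The columns of fold changes and p-values in the deposited Cuffdiff table, the authors' own comparison, were not used. Counts that were not whole (53 to 66 genes per library) were rounded. In the Cuffdiff output there were 3244 genes with a status other than OK, and all of them had 0 reads in every library. Gene starts count from 0 in that table (1897 genes then matched an annotated gene, against 12 for a start from 1) and are printed from 1. Other deposited columns give the position of each gene.

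The test was edgeR 4.0.16's quasi-likelihood test under R 4.3.3 (TMM, filterByExpr, glmQLFit, glmQLFTest) on the rounded counts, although whole counts had been assumed in the design. Adjusted p-values are Benjamini-Hochberg over 10875 genes, with a threshold of 0.05. Standard errors are the log2 fold change over the square root of F, and 95% intervals take 5.072 degrees of freedom. Exon lengths came from WBcel235. The fit was also run on counts simulated from its own dispersion trend, with no effect shared between replicates. That run is no check of how well the fit suits these data. No gene of the count table overlapped any of the 10. Whether counting used strand is not given in the sources used here. PCR duplicates were not identified, so intervals from reads cover counting error only.

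The 10 genes, the lists and the markers were chosen with earlier results of these data known. Of the 143 genes in all lists, 141 were found. Named besides the 10 are the 2 genes per list with the largest fold change among those with at least 10 reads in every library, the 5 profiles most like egl-30, and met-2 as the check of labels. Other genes were named after their values were seen. Alternatives were RLE and upper quartile scaling, other filters, DESeq2 1.42.0, a replicate block, other thresholds and leaving out each library.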

Additional observations from a re-analysis of the deposited data

How the results depend on the processing

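At the threshold of 0.05, no gene of the 10 was called under RLE or upper quartile scaling or with no filter (0 in each). None was called with a minimum of 10 reads in every library, DESeq2 or the replicate block either (0 in each). In the main fit 0 genes had an adjusted p below 0.1, and 1 had an unadjusted p below 0.05. For egl-30 the adjusted p was 0.087 with DESeq2 and 0.0548 with edgeR's replicate block, both under 0.1. The gene was chosen on this contrast, so these values are no test of it. Over all genes tested, edgeR called 113 genes with no filter and 144 with the replicate block, DESeq2 called 26, and 526 had an unadjusted p below 0.05. Of the 100 alternative values for the log2 fold changes of the 10 genes, 92 kept the direction and 8 had the other sign. These were gsa-1 at -0.14 without him-8 replicate 2 (up to 0.92 with another library left out), gpc-2 at 0.090 (as low as -1.09) and kin-2 at 0.18 (as low as -1.77) without met-2;him-8 replicate 1, and gpb-2, which lies near 0, at 0.0091 with RLE, 0.0038 with DESeq2, 0.044 with the replicate block, 0.27 without met-2;him-8 replicate 2 and 0.54 without him-8 replicate 1 (as low as -0.39 with another left out). For nmy-1 the value was -0.10 without met-2;him-8 replicate 2 and up to 1.90 with another library left out. Where 1 library was left in a genotype, it was assumed to vary like the others. The log2 fold change of egl-30 stayed between -1.30 and -1.21 with each library left out. Leaving out each library in turn gave 3 to 6 of the 10 genes with met-2;him-8 wholly lower and 2 to 4 wholly higher. Among all genes tested, 3406 to 4818 were wholly lower and 3003 to 4606 wholly higher, since 3 libraries separate more easily than 4. The filter on low counts was applied anew to each set of 3 libraries. The number of genes tested there is not given, so these counts are no result about the 10 genes.

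With the replicate number as a block, 1 gene of the other G protein subunits was called, gpa-1 (edgeR adjusted p = 0.0242, log2 fold change -1.91). Over its other alternatives the adjusted p of gpa-1 ran from 0.160 to 1. The adjusted p of met-2 under the block was 5.39e-07. The labels number the libraries of both genotypes 1 and 2 but give no shared origin, and over genes the deviations of same-numbered libraries correlated with r = 0.358.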
